A study of Mus musculus with 18 samples.

Results

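The enzymes that break down glucose through glycolysis and the pentose phosphate pathway were followed across 9 populations of mouse myeloid cells. The list held 38 genes, chosen by their role and matched by symbol: 3 hexokinases, 7 genes of upper glycolysis, 5 genes that make or remove fructose bisphosphates, 7 of lower glycolysis, 2 lactate dehydrogenase subunits, 7 genes of the pyruvate dehydrogenase complex and its kinases, 3 of the oxidative and 4 of the non-oxidative pentose phosphate pathway. All 38 were found among the 16319 genes of the deposited table, Pkm under its older name PKM2. Of these, 35 passed the filter on low values (5.53 normalised reads or more in at least 2 libraries) and were tested among 12098 genes. The other members were Pfkfb1, which reached 0 to 4.70 normalised reads over the 18 libraries, Eno2, at 0 to 4.64, and Pdk4, at 0 to 2.52.

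The cells were sorted from C57BL/6 mice, for which the labels name no transgene and no treatment; no source used here gives their age. Experiment 1 held 4 macrophage populations, from brain (microglia), peritoneal cavity, ileum (called small intestine here) and colon (large intestine). Experiment 2 held 5 populations: macrophages of liver (Kupffer cells), lung and splenic red pulp, and bone marrow monocytes and neutrophils. Each population had 2 libraries, made in 1 experiment only, so population and experiment cannot be told apart wherever a population of one is set beside a population of the other. Populations were therefore compared within an experiment, and levels across both are given as a description. An F test over all 9 populations and an alternative that compares with the macrophages of both experiments cross them. The labels do not say whether the libraries of a population came from separate mice, so the p-values measure the spread between these libraries. In sorted bulk samples, fewer cells that express a gene and less RNA per cell cannot be told apart.

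Glycolysis converts glucose to pyruvate. Hexokinase traps glucose as glucose 6-phosphate, phosphofructokinase commits it to breakdown, and the lower steps yield ATP and NADH. Lactate dehydrogenase regenerates NAD+ from pyruvate, whereas the pyruvate dehydrogenase complex, held in check by the Pdk kinases, sends pyruvate to the mitochondrion. The oxidative pentose phosphate pathway diverts glucose 6-phosphate to make NADPH, which neutrophils and macrophages use in the oxidative burst and against oxidants, and the non-oxidative part interconverts sugar phosphates. Neutrophils are known for their reliance on glycolysis.

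Each library held 593552 to 1595119 reads in genes, and a value is a normalised read, the authors' count divided by a factor for the library. At 0, a library still allows a level of up to 1.69 to 6.59 normalised reads (3 reads, counting error only). Each macrophage population carried its own markers: the 6 microglial markers summed to 13845 and 14686 normalised reads in microglia and to 35.2 to 574.6 elsewhere, and the 5 Kupffer markers to 9918 and 14872 in Kupffer cells and to 0 to 1087 elsewhere. The 10 neutrophil markers summed to 273638 and 338172 in neutrophils and to at most 4059 in any other library. The marker sums for lung macrophages and monocytes were at least as high in neutrophils as in their own cells, through Chi3l3 and the Ly6c genes, while the lung genes Siglec5 and Car4 reached at most 12.4 normalised reads in neutrophils and the monocyte genes Ccr2 and F13a1 at most 41.8. The intestinal marker sum, 8915 to 13095 in the intestine, was 8920 and 10682 in microglia. Erythroid markers, which belong to no sorted cell, summed to 29886 and 40720 in the spleen libraries, 10909 and 21953 in Kupffer cells, 14658 and 49694 in neutrophils, 10530 and 16623 in monocytes, 765 and 4233 in lung macrophages, and 2695 and 10627 in microglia against 30.7 and 172 in peritoneal macrophages; their part in the results below was not tested.

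Neutrophils lay above every macrophage population in the summed share of these genes. This also held for the hexokinases, upper and lower glycolysis and both parts of the pentose phosphate pathway. It did not hold for the genes of fructose bisphosphates or those around pyruvate dehydrogenase. Nor did it hold for lactate dehydrogenase, at 0.0646% and 0.0744% in neutrophils and 0.126% and 0.109% in peritoneal macrophages. The 38 members together made up 2.02% and 2.07% of the normalised reads of all genes in the neutrophil libraries, 1.07% and 1.11% in monocytes, 0.981% and 1.13% in lung macrophages, 0.597% to 0.899% in the other macrophages, and 0.417% and 0.445% in microglia. For 17 of the 38 members both neutrophil libraries lay above all 16 other libraries. With each library set to the same total this held for 9, and no longer for Hk1, Aldoa, Pfkfb4, Gapdh, Eno1, Ldha, Pgls and Rpe. Microglia had the lowest mean of the 9 populations for 13 of the 35 tested members, spleen for 7, and peritoneal macrophages and neutrophils for 4 each. The counts of highest and lowest populations were made for the members only, so no share over all genes stands beside them.

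**Figure D1:**
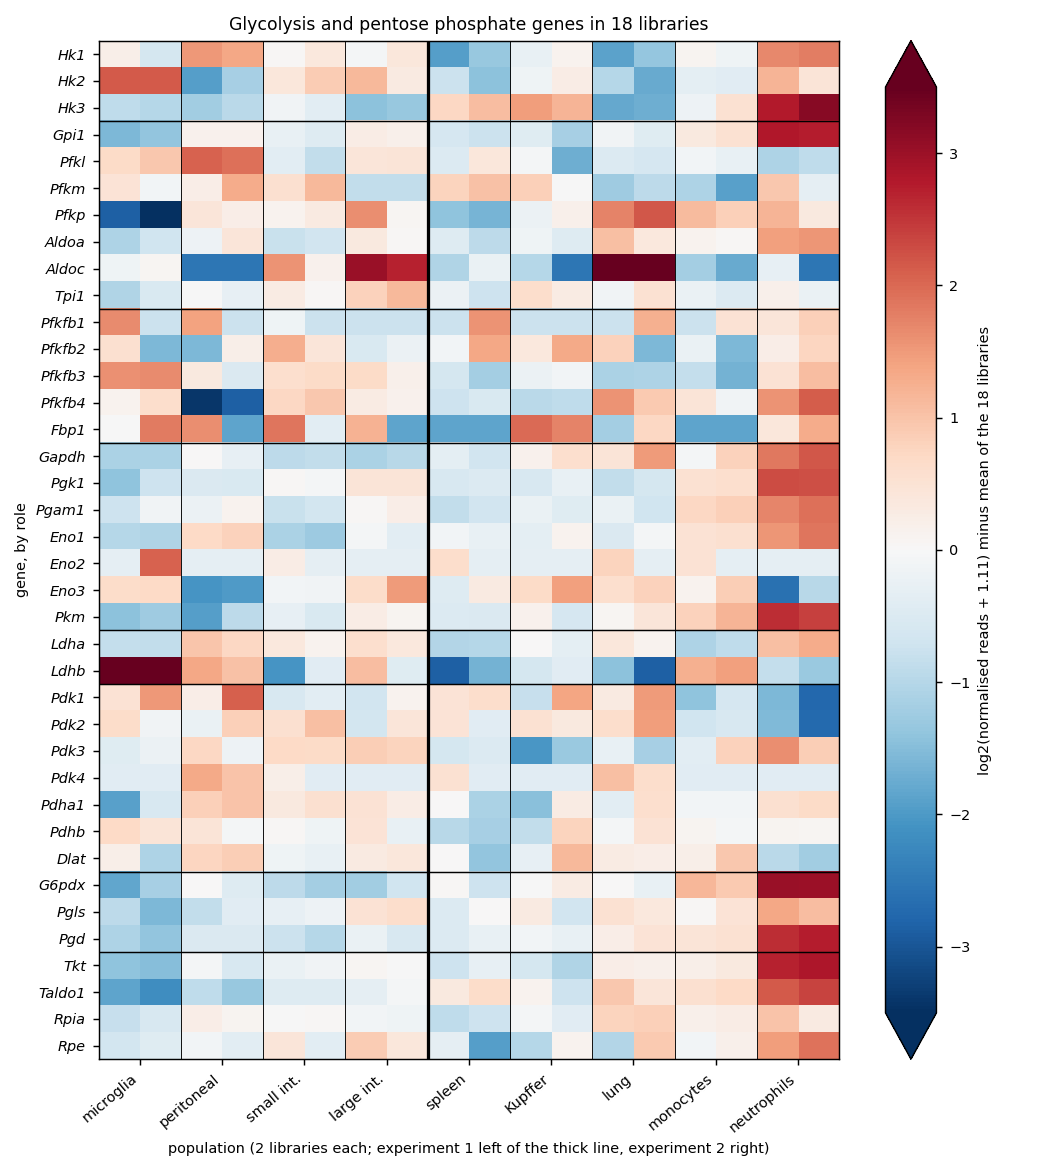
Level of each of the 38 members (rows, grouped by role with horizontal lines) in each of the 18 libraries (columns), as log2(normalised reads + 1.11) minus the gene's mean over the 18 libraries; red is above and blue below the mean, and the colours saturate at the ends of the scale. The neutrophil columns are red in most rows of glycolysis and the pentose phosphate pathway and blue for Pdk1, Pdk2 and Eno3, and the microglia columns are red for Hk2, Pfkfb3 and Ldhb.

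A gene was called where limma's adjusted p was under 0.05 and the log2 fold change at least 1 in size. In neutrophils against the macrophages of experiment 2, 20 of the 35 tested members rose and 4 fell, where 15.9% of all tested genes rose and 22.9% fell (38.8% in either direction). Their median log2 fold change was 1.52, against -0.26 for all tested genes. In neutrophils against monocytes 16 members rose and 2 fell (background 11.3% and 12.2%, 23.5% together). The neutrophil column totals are higher than all others, and the result depends on the scaling: with all libraries set to equal totals, which moved the median of all genes from -0.26 to -0.88, 13 members rose and 6 fell against macrophages and 6 rose and 4 fell against monocytes. With quantile normalization the counts were 16 and 3, and 10 and 1. Here and below, counts with another scaling or fit stand without the share of all tested genes called in the same fit. Of all genes called against macrophages 40.9% were higher, a share that was 18% with equal totals and 46.6% with quantile normalization; against monocytes it went from 48.1% to 17.6% and 42.8%, and the median of all genes moved to -0.64 with equal totals.

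Monocytes had 8 members higher and 1 lower than the macrophages of experiment 2 (background 7.39% and 12%, 19.4% together), with a median of 0.30 against -0.08 for all genes; without monocyte library 2, 3 rose and none fell. Microglia, against the other macrophages of experiment 1, had 4 members higher and 9 lower (background 10.7% and 15.1%, 25.8% together), with a median of -0.67 against -0.06. Peritoneal macrophages had 3 higher and 4 lower (background 6.97% and 14.4%, 21.3% together), numbers that became 7 and 4 with equal totals, 7 and 5 with quantile normalization. Intestinal macrophages of both kinds, against microglia and peritoneal macrophages, had 8 higher and 2 lower (background 16.2% and 6.58%, 22.8% together), numbers that became 5 and 2 with equal totals and 7 and 3 with quantile normalization. Of all calls in that comparison 71.2% were higher, a share that was 60.7% with equal totals and 55.1% with quantile normalization; for peritoneal macrophages the share went from 32.7% to 43.7% and 45.7%. The median of all genes moved from 0.11 to -0.04 and -0.11 for the intestine and from -0.18 to 0.01 and 0.04 for peritoneal macrophages.

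Lung macrophages had 6 members higher and 1 lower than spleen and Kupffer macrophages (background 7.85% and 10.1%, 17.9% together). Kupffer cells had 2 higher and 2 lower (background 5.46% and 4.56%, 10% together). Spleen red pulp macrophages had 1 higher and 4 lower (background 5.71% and 4.84%, 10.6% together), of which 3 in all were called without spleen library 1 and 1 without spleen library 2. Small against large intestine gave no call among the members, where 0.388% of all genes were called higher and 0.744% lower (1.13% together). The smallest adjusted p there was that of Hk3 (log2 fold change 1.13 ± 0.28, adjusted p = 0.0613). Across the populations of experiment 1, 22 members differed (F test of limma, with a range of means of at least 1 on the log2 scale; background 34.8%), across those of experiment 2, 29 (background 50.9%), and across all 9 populations, where differences between the experiments count too, 30 (background 66.7%). The comparisons within an experiment share libraries with each other.

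**Figure D2:**
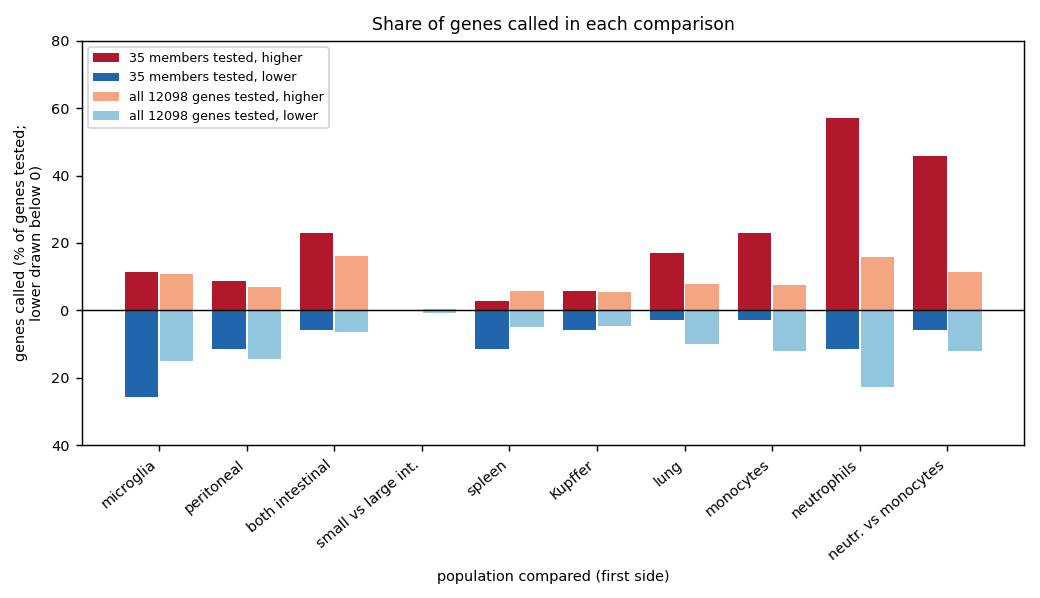
Share of genes called higher (above 0) and lower (below 0) in each comparison, in percent of the genes tested, for the 35 tested members (dark bars) and all 12098 tested genes (light bars). Dark red bars exceed light red bars most for neutrophils, where 20 of 35 members and 15.9% of all genes were higher; no member was called between small and large intestine.

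All 3 hexokinases rose in neutrophils against macrophages, where 15.9% of all tested genes rose. Each had a different order among the other populations. Hk1, the widely expressed hexokinase that binds mitochondria, measured 265 and 290.1 normalised reads in neutrophils and 238 and 212 in peritoneal macrophages, 88.7 and 74 in monocytes, 68.1 and 89.3 in Kupffer cells, 95.8 and 52.8 in microglia, 84.3 and 107 in small and 77.8 and 109 in large intestine, and 20.9 and 32.1 in spleen and 21.5 and 31.5 in lung. Neutrophils and peritoneal macrophages lay above all other libraries, and spleen and lung, which overlapped each other, below all others. Hk1 rose in peritoneal macrophages (log2 fold change 1.38 ± 0.29, adjusted p = 0.00153), Kupffer cells (log2 fold change 1.54 ± 0.30, adjusted p = 0.00214) and neutrophils (log2 fold change 2.85 ± 0.29, adjusted p = 2.74e-07 against macrophages). It also rose in monocytes against macrophages (log2 fold change 1.08 ± 0.29, adjusted p = 0.0103), a call that was lost without either monocyte library, without spleen library 1 or without lung library 1, with values of 0.96 to 1.21.

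Hk2, the inducible hexokinase of muscle and activated cells, was highest in microglia, at 81.7 and 80.7 normalised reads. It measured 23.6 and 33.2 in small and 40.1 and 22.1 in large intestine, 3.78 and 7.22 in peritoneal macrophages, 15.6 and 21.2 in Kupffer cells, 9.97 and 5.84 in spleen, 8.22 and 4.43 in lung, 13.6 and 13 in monocytes and 41.3 and 24.2 in neutrophils. The microglia libraries lay above all others, and the peritoneal ones overlapped spleen and lung. Hk2 rose in microglia (log2 fold change 2.20 ± 0.44, adjusted p = 0.00112) and fell in peritoneal macrophages (log2 fold change -2.72 ± 0.44, adjusted p = 0.000177). It rose in neutrophils against macrophages (log2 fold change 1.62 ± 0.44, adjusted p = 0.00692), a call lost without neutrophil library 1 (1.24, adjusted p = 0.114) and with equal totals (0.80, adjusted p = 0.16).

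Hk3, the hexokinase of myeloid cells, measured 1105 and 1479 normalised reads in neutrophils. Other values were 445 and 372 in Kupffer cells, 268 and 339 in spleen, 143 and 232 in monocytes, 149 and 123 in small intestine, 69.3 and 83.9 in peritoneal macrophages, 87.4 and 80.7 in microglia, 58.9 and 63.4 in large intestine and 45.5 and 48.7 in lung. The lung libraries were the lowest of all 18, and the neutrophil ones the highest. Hk3 rose in neutrophils against macrophages (log2 fold change 2.82 ± 0.23, adjusted p = 2.4e-08) and against monocytes (log2 fold change 2.80 ± 0.28, adjusted p = 1.08e-06). Among the macrophages of experiment 2 it rose in Kupffer cells (log2 fold change 1.76 ± 0.24, adjusted p = 8.8e-05) and fell in lung (log2 fold change -2.87 ± 0.24, adjusted p = 1.03e-07). Both spleen libraries lay below those of Kupffer cells and above those of lung. Spleen was called higher than the mean of Kupffer cells and lung (log2 fold change 1.11 ± 0.24, adjusted p = 0.00618). Without spleen library 2 that change went under the fold threshold (0.94). Kupffer cells were thus called higher in Hk1 and Hk3. For Hk1 the log2 fold change in lung was -0.77, adjusted p = 0.0863.

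The regions before the start sites of Hk2 and Hk3, of Pgk1, a gene often used as an example of a target of the hypoxia factor HIF, and of Tkt, transketolase, show how the promoters of these genes differ. Each is the 250 bases before a RefSeq start site in build GRCm38.p6, 5′ to 3′ on the gene's strand. Capitals mark ACGTG, a form of the core that HIF binds, on either strand (CACGT when read from the other strand).
Hk2, chr6:82774455-82774704, minus strand: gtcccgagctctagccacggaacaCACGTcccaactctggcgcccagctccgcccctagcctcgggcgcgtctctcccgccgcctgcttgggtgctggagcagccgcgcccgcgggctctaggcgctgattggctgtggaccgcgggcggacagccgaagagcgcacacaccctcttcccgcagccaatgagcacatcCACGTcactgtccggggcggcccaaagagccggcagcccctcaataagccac
Hk3, chr13:55021386-55021635, minus strand: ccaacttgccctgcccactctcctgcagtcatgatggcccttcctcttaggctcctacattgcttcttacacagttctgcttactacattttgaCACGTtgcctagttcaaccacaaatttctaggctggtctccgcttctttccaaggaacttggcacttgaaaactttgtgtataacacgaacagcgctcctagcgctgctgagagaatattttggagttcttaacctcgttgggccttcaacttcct
Pgk1, chrX:106186850-106187099, plus strand: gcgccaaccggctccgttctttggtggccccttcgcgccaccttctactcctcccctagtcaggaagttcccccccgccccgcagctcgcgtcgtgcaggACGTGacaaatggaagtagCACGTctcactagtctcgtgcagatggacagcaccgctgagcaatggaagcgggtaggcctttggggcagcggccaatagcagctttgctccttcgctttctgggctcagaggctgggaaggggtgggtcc
Tkt, chr14:30548881-30549130, plus strand: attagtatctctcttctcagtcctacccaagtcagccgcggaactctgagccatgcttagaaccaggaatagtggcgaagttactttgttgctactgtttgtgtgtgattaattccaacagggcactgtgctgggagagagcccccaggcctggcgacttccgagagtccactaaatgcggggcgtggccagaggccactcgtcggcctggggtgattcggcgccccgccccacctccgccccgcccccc
Hk2 and Pgk1 hold 2 matches to ACGTG each, Hk3 holds 1 and Tkt none. The form GCGTG, which HIF also binds, was not searched or marked, and the Tkt sequence holds it. Tkt is therefore not shown to lack a HIF core.

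All 38 members had at least 1 promoter in the RefSeq table, 58 promoters in all. ACGTG on either strand was found in 17 of these 58 promoters (29.3%) and in 16.6% of all 32851 promoters of the same length. By gene, 13 of the 38 members held it in some promoter, against 18.5% of all 27025 genes. The E-box CACGTG, bound by Myc and the carbohydrate response factors, contains ACGTG and was found in 5 member promoters (8.62%), against 6.02% of all promoters. The AP-1 site TGACTCA was found in 1 member promoter, that of Aldoa (1.72%), against 4.46% of all. A match is a description of the sequence and does not show that a factor binds there. The list of 38 genes was not drawn at random from the genome, and these shares carry no test.

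In upper glycolysis, 2 of 7 members rose and 1 fell in neutrophils against macrophages (background 15.9% and 22.9%, 38.8% together). Gpi1, glucose phosphate isomerase, had the largest fold change of all members in that comparison with the deposited scaling. It measured 3160.3 and 3048 normalised reads in neutrophils, 576 and 653 in monocytes, 538 and 511 in large and 378 and 331 in small intestine, 501 and 506 in peritoneal macrophages, 416 and 335 in lung, 335 and 203 in Kupffer cells, 302 and 271 in spleen, and 152 and 172 in microglia. Neutrophils were the highest and microglia the lowest, with no overlap with any other population. Gpi1 rose in neutrophils (log2 fold change 3.35 ± 0.21, adjusted p = 8.27e-10 against macrophages; 2.34, adjusted p = 1.99e-06 against monocytes) and fell in microglia (log2 fold change -1.48 ± 0.21, adjusted p = 2.75e-05). A rise in monocytes against macrophages (log2 fold change 1.01 ± 0.21, adjusted p = 0.00145) fell under the fold threshold without spleen, Kupffer, lung or monocyte library 2, with values of 0.89 to 0.99.

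The phosphofructokinase genes Pfkl (liver type) and Pfkp (platelet type) were divided between populations, as the plots by library show. Pfkl measured 178 and 162 normalised reads in peritoneal macrophages, 67.7 and 81.6 in microglia, 56.6 and 57.6 in large and 32 and 22.6 in small intestine. In experiment 2 it measured 39.5 and 12.1 in Kupffer cells, 29.9 and 55.5 in spleen, 29.7 and 27.7 in lung, 39.2 and 34.5 in monocytes and 19.3 and 22 in neutrophils. Peritoneal macrophages exceeded all other libraries. Pfkl rose in peritoneal macrophages (log2 fold change 1.78 ± 0.37, adjusted p = 0.00169) and fell in the intestine (log2 fold change -1.49 ± 0.32, adjusted p = 0.0018). In neutrophils the change was -0.50, adjusted p = 0.294. Pfkp measured 70.8 and 96.3 in lung, 45.2 and 37.6 in monocytes, 48.2 and 26.4 in neutrophils, 17.7 and 23.2 in Kupffer cells and 6.98 and 5.84 in spleen. In experiment 1 it measured 66 and 21.5 in large and 22.5 and 25.9 in small intestine, 27.7 and 24.4 in peritoneal macrophages and 1.88 and 0 in microglia, where 2 reads were counted in all. In microglia it was lower by a factor of 30.5 (95% interval from the read counts 8.35 to 254; intervals of this kind cover counting error only, since amplified reads are not independent molecules), and it fell there by the fit (log2 fold change -4.04 ± 0.47, adjusted p = 4.27e-06). In the intestine Pfkp was called higher than the mean of microglia and peritoneal macrophages (log2 fold change 2.16 ± 0.41, adjusted p = 0.000639). The intestinal libraries lay above the microglial ones but overlapped the peritoneal ones. Pfkp rose in lung (log2 fold change 2.73 ± 0.50, adjusted p = 0.000632). In spleen its fall (log2 fold change -2.50 ± 0.50, adjusted p = 0.00308) was lost without spleen library 2 (-2.39, adjusted p = 0.0546). Pfkm, the muscle type, ranged from 0 to 9.03 in all libraries.

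**Figure D3:**
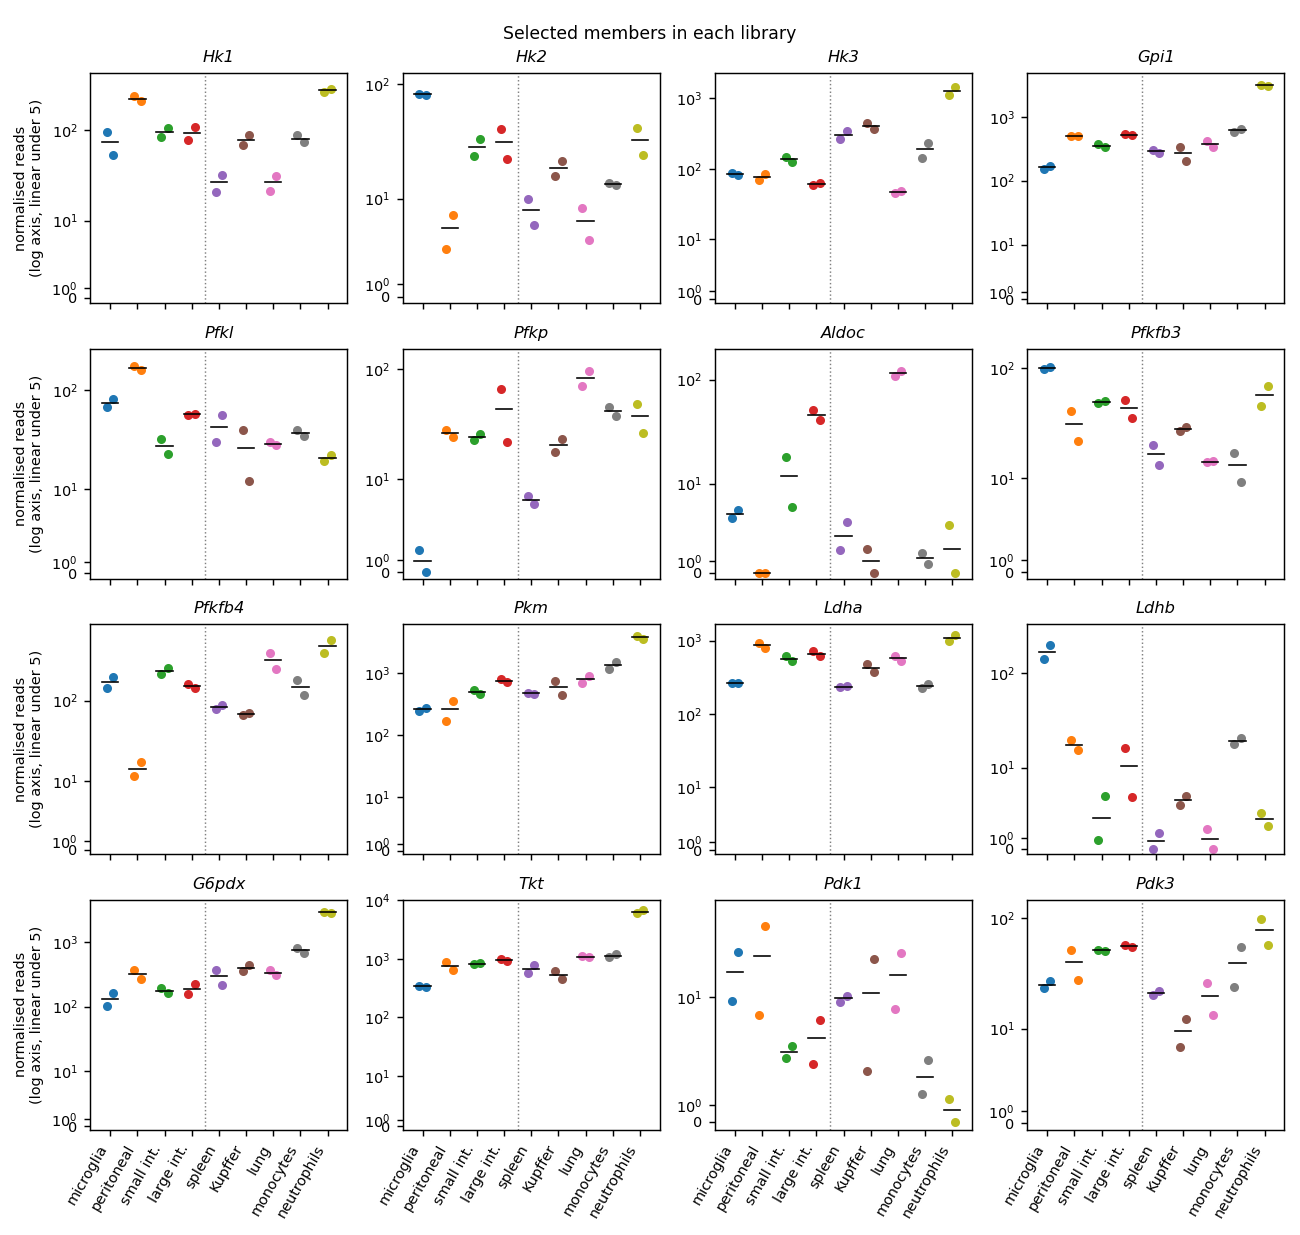
Normalised reads (log axis, linear under 5) of 16 members in each library (points), with the population mean as a bar; the dotted line separates experiment 1 (left) from experiment 2 (right). Hk2, Pfkfb3 and Ldhb peak in microglia, Pfkl in peritoneal macrophages, Aldoc and Pfkp in lung, and Hk3, Gpi1, Pkm, G6pdx and Tkt in neutrophils.

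Aldoc, the aldolase isoform of brain and other tissues, had the widest range of population means, 6.71 on the log2 scale. That range ran from lung in experiment 2 to peritoneal macrophages in experiment 1. Both peritoneal libraries were at 0, so its size depends on the added 1.11. Aldoc measured 109 and 122 normalised reads in lung, 50.7 and 40.7 in large and 18 and 5.97 in small intestine. It measured 4.70 and 5.56 in microglia and 1.99 and 4.38 in spleen. It was listed at 2.08 and 0 in Kupffer cells, 1.70 and 0.77 in monocytes, 4.13 and 0 in neutrophils and at 0 in both peritoneal libraries. Lung lay above all others, followed by large intestine, and no other library exceeded the higher value of small intestine. Aldoc rose in lung (log2 fold change 5.38 ± 0.71, adjusted p = 1.89e-05) and in the intestine (log2 fold change 3.15 ± 0.58, adjusted p = 0.000492). In peritoneal macrophages it was at least 6.45-fold lower than in the other macrophages of experiment 1 (floor of 3 reads per library). In Kupffer cells, with 2 reads, it was lower by a factor of 67.1 (95% interval 18.4 to 557) than in spleen and lung libraries pooled, whose reads came mostly from lung, while its libraries and those of spleen overlapped. By the fit Aldoc fell there (log2 fold change -3.54 ± 0.71, adjusted p = 0.00271), a call lost without Kupffer library 2 (-2.78, adjusted p = 0.0735). The lower levels in monocytes and neutrophils, with 3 reads each, were called against macrophages that include lung (-2.07, adjusted p = 0.0337, and -2.0, adjusted p = 0.0229); the first was lost without either monocyte library, spleen library 2, Kupffer library 1 or lung library 2 (values of -2.37 to -1.78). The second was lost without neutrophil library 3 (-0.88, adjusted p = 0.441), while without neutrophil library 1 it was -3.12.

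Aldoa, the main aldolase, measured 3469.6 and 3706 normalised reads in neutrophils, 2664 and 1669 in lung and 600.3 to 1719 in the other populations. Neutrophils were called higher (log2 fold change 1.58 ± 0.23, adjusted p = 2.59e-05), a call lost with equal totals (0.72, adjusted p = 0.0114) and with quantile normalization (0.44, adjusted p = 0.193). Aldoa also rose in lung (log2 fold change 1.22 ± 0.25, adjusted p = 0.00139), where the call was lost without lung library 1 (0.88, adjusted p = 0.0527). Tpi1, triose phosphate isomerase, ran from 95.2 and 139.5 in microglia to 352 and 444 in large intestine. It fell in microglia (log2 fold change -1.12 ± 0.25, adjusted p = 0.00237; without microglia library 1 -0.85, adjusted p = 0.0782) and rose in the intestine (log2 fold change 1.04 ± 0.22, adjusted p = 0.00132), with values of 0.90 to 0.98 without microglia library 1, peritoneal library 2, small intestine library 3 or large intestine library 3. That rise was also under the fold threshold with equal totals (0.85, adjusted p = 0.00556) and quantile normalization (0.99, adjusted p = 0.00154). Lung macrophage libraries also carried epithelial RNA: all 5 lung epithelial markers were above 0 in both, with sums of 1023 and 1078 normalised reads against at most 17.6 in any other library, and 5 of 7 gut epithelial markers were above 0 in both, with sums of 2163 and 2352. All 7 gut epithelial markers were above 0 in the intestinal libraries, with sums of 859 and 2203 in small and 3222 and 3299 in large intestine, against at most 36.1 in microglia and peritoneal macrophages, where Vil1 and Cdh1 were at 0. Their part in the lung and intestinal values of Aldoc and the other members was not tested.

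The bifunctional enzymes that set fructose 2,6-bisphosphate, the main activator of phosphofructokinase, also split the populations. Pfkfb4 measured 393 and 565 normalised reads in neutrophils, 391 and 248 in lung, 215 and 252 in small and 159 and 144 in large intestine, 142 and 199 in microglia and 179 and 119 in monocytes. It was lower in spleen, at 78.7 and 89.1, in Kupffer cells, at 66.5 and 69.6, and lowest in peritoneal macrophages, at 11.3 and 17.2. The peritoneal libraries lay far below all 16 others. Those of microglia overlapped large intestine and lay below small intestine. The rises in microglia and the intestine given below are against averages that include the low peritoneal libraries. Pfkfb4 fell in peritoneal macrophages (log2 fold change -3.59 ± 0.26, adjusted p = 1.68e-08) and Kupffer cells (log2 fold change -1.23 ± 0.28, adjusted p = 0.00655), and rose in lung (log2 fold change 2.03 ± 0.28, adjusted p = 2.73e-05), the intestine (log2 fold change 1.90 ± 0.23, adjusted p = 5.22e-06) and neutrophils (log2 fold change 1.95 ± 0.26, adjusted p = 9.1e-06). Its rise in microglia (log2 fold change 1.06 ± 0.26, adjusted p = 0.0054) was lost without microglia library 2 (0.81, adjusted p = 0.121) or peritoneal library 1 (0.97).

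Pfkfb3, the isoform with the highest kinase activity, measured 97.7 and 102 normalised reads in microglia, 47.7 and 50.4 in small and 50.7 and 35.5 in large intestine and 40.3 and 21.7 in peritoneal macrophages. In experiment 2 it measured 45.5 and 68.1 in neutrophils, 27 and 29.3 in Kupffer cells, 19.9 and 13.1 in spleen, 13.9 and 14.4 in lung and 17 and 9.21 in monocytes. Microglia were above all other libraries, and neutrophils above the rest of experiment 2. The rise in microglia (log2 fold change 1.31 ± 0.36, adjusted p = 0.00984) was lost without microglia library 1 (1.34, adjusted p = 0.0683) or 2 (1.28, adjusted p = 0.0873). In neutrophils Pfkfb3 rose against monocytes (log2 fold change 2.05 ± 0.44, adjusted p = 0.00183; with equal totals 1.18, adjusted p = 0.0516) and against macrophages (log2 fold change 1.52 ± 0.36, adjusted p = 0.00217; without neutrophil library 3 1.24, adjusted p = 0.0637; with equal totals 0.69, adjusted p = 0.128). Pfkfb2 stayed at 0 to 7.30, and Fbp1, the gluconeogenic bisphosphatase, at 0 to 14.6. Fbp1 measured 14.6 and 12.1 in Kupffer cells, which had its highest mean. All 9 hepatocyte markers were above 0 in both Kupffer libraries, with sums of 820.1 and 3523 normalised reads, against 1748 and 1844 in spleen, 1175 and 1323 in lung, 295 to 666 in experiment 1 and 146 to 221 in monocytes and neutrophils. Their part in the level of Fbp1 was not tested. Neither Pfkfb2 nor Fbp1 was called in any comparison between populations.

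In lower glycolysis 5 of 6 tested members rose in neutrophils against macrophages and against monocytes with the deposited scaling, and Eno3 fell in both. Of all tested genes 15.9% rose and 22.9% fell against macrophages, and 11.3% and 12.2% against monocytes. Against macrophages 4 of the 5 member rises were kept with equal totals and all 5 with quantile normalization. Against monocytes none was kept with equal totals, and with quantile normalization only that of Pgk1. Pkm, pyruvate kinase of myeloid and other cells, measured 3984 and 3474 normalised reads in neutrophils, 1167 and 1522 in monocytes, 688 and 892 in lung, 787 and 706 in large and 539 and 458 in small intestine. It measured 733 and 440.4 in Kupffer cells, 472 and 464 in spleen, 172 and 351 in peritoneal macrophages and 243 and 277 in microglia. Neutrophils came first and monocytes second without overlap. Pkm rose in neutrophils (log2 fold change 2.65 ± 0.26, adjusted p = 1.81e-07; against monocytes 1.48, adjusted p = 0.00173, a call lost with equal totals, 0.59, adjusted p = 0.141, and with quantile normalization, 0.43, adjusted p = 0.358) and in the intestine (log2 fold change 1.27 ± 0.22, adjusted p = 0.000286). Its rise in monocytes (log2 fold change 1.17 ± 0.26, adjusted p = 0.00268) was lost without monocyte library 2 (0.98, adjusted p = 0.092).

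Pgk1, phosphoglycerate kinase, which makes the first ATP of the pathway, measured 331 and 324 normalised reads in neutrophils, 96.1 and 99.5 in monocytes, 90.6 and 90.7 in large and 68.1 and 63 in small intestine, and 24.3 to 55.6 in the others, with microglia library 1 the lowest. Pgk1 rose in neutrophils (log2 fold change 2.84 ± 0.25, adjusted p = 6.28e-08; against monocytes 1.73, adjusted p = 0.000408, lost with equal totals, 0.84, adjusted p = 0.0579). Its other calls were at the threshold. Those were a rise in monocytes (log2 fold change 1.11 ± 0.25, adjusted p = 0.00368; without monocyte library 2 1.08, adjusted p = 0.0594), a fall in microglia (log2 fold change -1.03 ± 0.25, adjusted p = 0.00502; without microglia library 1 -0.68, adjusted p = 0.143) and a rise in the intestine (log2 fold change 1.0 ± 0.22, adjusted p = 0.00198; 0.83 to 1.0 without microglia library 1, peritoneal library 2 or small intestine library 3; 0.81, adjusted p = 0.0127 with equal totals). Pgam1, phosphoglycerate mutase, measured 214 and 252 in neutrophils and 109 and 117 in monocytes, both above all macrophages (35.2 to 76.4). It rose in neutrophils (log2 fold change 2.34 ± 0.26, adjusted p = 1.01e-06) and in monocytes (log2 fold change 1.31 ± 0.26, adjusted p = 0.00131) against macrophages. The difference between neutrophils and monocytes (log2 fold change 1.03 ± 0.32, adjusted p = 0.0241) was lost without any 1 of their 4 libraries (values of 0.92 to 1.15), with equal totals (0.14, adjusted p = 0.811) and with quantile normalization (0.58, adjusted p = 0.248).

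Gapdh, glyceraldehyde phosphate dehydrogenase and a common reference gene, was far from constant. It measured 642 and 804 normalised reads in neutrophils, 244 and 499.8 in lung, 196 and 270.3 in Kupffer cells, 169.7 and 313 in monocytes and 139.5 and 113 in spleen, against 81.5 to 179.6 in experiment 1. The lung libraries lay far apart from each other, as did those of monocytes. Gapdh rose in neutrophils (log2 fold change 1.73 ± 0.28, adjusted p = 6.44e-05; with equal totals 0.87, adjusted p = 0.017). Against monocytes the rise (1.64, adjusted p = 0.00148) was lost with equal totals (0.74, adjusted p = 0.118) and quantile normalization (0.98, adjusted p = 0.0644). The rise in lung (log2 fold change 1.03 ± 0.29, adjusted p = 0.0171) was lost without lung library 2 (0.52, adjusted p = 0.43), spleen library 2 (0.96) or Kupffer library 1 (0.92), with quantile normalization (0.98, adjusted p = 0.0326) and without a variance trend (1.03, adjusted p = 0.0724). The fall in spleen (log2 fold change -1.17 ± 0.29, adjusted p = 0.0139) was lost without either spleen library or lung library 2, with values of -1.32 to -0.91, and without a variance trend (-1.17, adjusted p = 0.0658).

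The enolases Eno1 and Eno3 moved in opposite directions in neutrophils and peritoneal macrophages. Eno1, the common enolase, measured 702 and 878 normalised reads in neutrophils, 388 and 419 in peritoneal macrophages, 337 and 350.3 in monocytes and 98.7 to 258 in the others. It rose in neutrophils (log2 fold change 1.90 ± 0.21, adjusted p = 8.03e-07) and peritoneal macrophages (log2 fold change 1.56 ± 0.21, adjusted p = 1.93e-05). Against monocytes its rise in neutrophils (1.19, adjusted p = 0.00195) was lost with equal totals (0.30, adjusted p = 0.477) and quantile normalization (0.48, adjusted p = 0.257). Eno3, the muscle enolase, measured 1.38 and 6.59 in neutrophils and 2.52 and 2.71 in peritoneal macrophages, against 9.97 to 41.3 elsewhere. Those populations thus had most Eno1 and least Eno3, while monocytes, next in Eno1, measured 15.3 to 26.1 for Eno3. Eno3 fell in peritoneal macrophages (log2 fold change -2.56 ± 0.51, adjusted p = 0.00114) and in neutrophils against macrophages (log2 fold change -2.34 ± 0.51, adjusted p = 0.00116; without neutrophil library 1 -1.53, adjusted p = 0.0556). Against monocytes its fall (log2 fold change -2.27 ± 0.62, adjusted p = 0.0117) was lost without monocyte library 2 (-1.91, adjusted p = 0.12) or neutrophil library 1 (-1.46, adjusted p = 0.141). GENCODE lists pseudogenes named after Aldoa, Gapdh, Pgk1, Pgam1 and Ldha, so the values of these 5 genes are uncertain where reads could match a copy. Pseudogenes under other names were not searched, so the other members are not shown to be free of copies.

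The lactate dehydrogenase subunits, Ldha (the muscle subunit, which favours lactate) and Ldhb (the heart subunit), changed in opposite directions in microglia. Ldhb measured 139 and 195 normalised reads in microglia, 17.9 and 20.7 in monocytes, 19.5 and 15.3 in peritoneal macrophages, 15.9 and 4.94 in large and 0.84 and 4.98 in small intestine. It measured 4.16 and 5.05 in Kupffer cells, 3.44 and 2.20 in neutrophils, 1.90 and 0 in lung and 0 and 1.46 in spleen. No other library came near the microglial ones. The large intestine and peritoneal libraries overlapped, and those of small intestine lay below the peritoneal ones. Ldhb rose in microglia (log2 fold change 4.26 ± 0.64, adjusted p = 6.87e-05) and in monocytes against macrophages (log2 fold change 2.97 ± 0.64, adjusted p = 0.00244) and fell in the intestine against microglia and peritoneal macrophages (log2 fold change -3.23 ± 0.56, adjusted p = 0.00025). In neutrophils against monocytes, with 3 reads in neutrophils, it was lower by a factor of 7.63 (95% interval 2.46 to 38.3), and it fell by the fit (log2 fold change -2.39 ± 0.79, adjusted p = 0.0323), a call that was lost without any 1 of the 4 libraries (log2 values of -2.62 to -2.16) and with quantile normalization (-1.89, adjusted p = 0.0953).

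Ldha measured 986 and 1180.3 normalised reads in neutrophils and 940.2 and 782 in peritoneal macrophages, 717 and 613 in large and 616 and 523 in small intestine, 624 and 519 in lung and 479 and 378 in Kupffer cells. It was lowest in microglia, at 265 and 264, in monocytes, at 223 and 259, and in spleen, at 233 and 237. These 3 populations lay below the other 6. Ldha fell in microglia (log2 fold change -1.37 ± 0.19, adjusted p = 3.24e-05) and rose in neutrophils against monocytes (log2 fold change 2.16 ± 0.24, adjusted p = 2.33e-06) and macrophages (log2 fold change 1.48 ± 0.19, adjusted p = 6.03e-06; with equal totals 0.63, adjusted p = 0.00725; with quantile normalization 0.81, adjusted p = 0.00163). In spleen its fall (log2 fold change -1.06 ± 0.20, adjusted p = 0.00214) went just under the fold threshold without Kupffer library 1 (-0.98) or lung library 1 (-1.0). Of 9 markers of neurons and astrocytes, 6 were in the table; their sum was 165 and 261 normalised reads in microglia and 12.4 to 53.1 in the other macrophages of experiment 1, with Tubb3 and Slc1a2 at 0 in microglia, and 178 and 379 in Kupffer cells, where Ldhb was low; their part in the microglial level of Ldhb was not tested.

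Of the 6 tested members around pyruvate dehydrogenase, 1 rose and 2 fell in neutrophils against macrophages (background 15.9% and 22.9%, 38.8% together). In monocytes 1 rose (background 7.39%), and in microglia 1 fell (background 15.1%). Pdk3 measured 97.8 and 57.1 normalised reads in neutrophils, 57.2 and 54.4 in large and 51.1 and 50.4 in small intestine, 51.7 and 27.5 in peritoneal macrophages, 23.9 and 54.9 in monocytes and 6.76 to 26.9 in the others. The neutrophil and large intestine libraries overlapped. It rose in neutrophils against macrophages (log2 fold change 2.21 ± 0.40, adjusted p = 0.000236). Pdk1 and Pdk2, 2 other kinases that switch the complex off, were each covered by 1 read in neutrophils, in library 1. Pdk1 measured 3.12 to 19.9 normalised reads in the macrophages of experiment 2 and Pdk2 4.38 to 18.8. The ratio of macrophages to neutrophils was 13.1 for Pdk1 (95% interval 2.27 to 525) and 11.9 for Pdk2 (2.07 to 479.5). Both falls (log2 fold change -2.74, adjusted p = 0.00437, and -2.63, adjusted p = 0.00179) were lost without neutrophil library 3 (-2.16, adjusted p = 0.0945, and -2.05, adjusted p = 0.0583). The rise of Pdk3 in monocytes (log2 fold change 1.19 ± 0.40, adjusted p = 0.0418) was lost in 9 of 18 fits that left out 1 library each: monocyte, spleen or lung library 2, spleen library 1, Kupffer library 1, and each of the 4 intestinal libraries. Its value was 0.61, adjusted p = 0.546 without monocyte library 2. Pdha1, the catalytic subunit, measured 6.58 and 18.5 in microglia against 33.7 to 56.9 in the rest of experiment 1 (log2 fold change -1.82 ± 0.47, adjusted p = 0.00753), a call lost without microglia library 1 (-1.14, adjusted p = 0.19). Pdhb (17.5 to 71.2) and Dlat (5.84 to 38.4) were not called in any comparison of populations.

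In the pentose phosphate pathway all 3 oxidative and 3 of 4 non-oxidative members rose in neutrophils against macrophages with the deposited scaling. Of all tested genes 15.9% rose there. G6pdx, glucose 6-phosphate dehydrogenase, the entry enzyme, measured 2977 and 2901 normalised reads in neutrophils and 827 and 689.7 in monocytes. It measured 359.7 and 447 in Kupffer cells, 374 and 221 in spleen, 368 and 308 in lung, 370.4 and 265 in peritoneal macrophages, 157 and 225 in large and 195 and 161 in small intestine, and 103 and 161 in microglia. Neutrophils and then monocytes lay above every macrophage library. G6pdx rose in neutrophils (log2 fold change 3.11 ± 0.25, adjusted p = 1.69e-08 against macrophages; 1.96, adjusted p = 0.000111 against monocytes, a call lost with quantile normalization, 0.91, adjusted p = 0.0571). Its rise in monocytes (log2 fold change 1.16 ± 0.25, adjusted p = 0.00234) was lost without monocyte library 1 (1.02, adjusted p = 0.0664).

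Pgd, the other enzyme that yields NADPH, measured 1432 and 1609 normalised reads in neutrophils, 326 and 345 in monocytes, 281 and 331 in lung, 222 and 199 in Kupffer cells, 168 and 199 in spleen and 90.8 to 202 in experiment 1. Neutrophils were above all other libraries. Pgd rose in neutrophils against macrophages (log2 fold change 2.73 ± 0.20, adjusted p = 5.23e-09) and monocytes (log2 fold change 2.17 ± 0.24, adjusted p = 2.95e-06). Pgls, the lactonase between them, ran from 114 and 72.3 in microglia to 551 and 459 in neutrophils. Its rise in neutrophils (log2 fold change 1.20 ± 0.27, adjusted p = 0.00148) was lost with equal totals (0.35, adjusted p = 0.255) and quantile normalization (0.62, adjusted p = 0.0658). Its fall in microglia (log2 fold change -1.14 ± 0.27, adjusted p = 0.00381) was lost without microglia library 2 (-0.82, adjusted p = 0.12), and its rise in the intestine (log2 fold change 1.10 ± 0.23, adjusted p = 0.00163) went to 0.94 and 0.98 without microglia library 2 or peritoneal library 1 and was lost with equal totals (0.90, adjusted p = 0.00368).

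Tkt, transketolase, which moves carbon units between sugars, measured 6017 and 6695 normalised reads in neutrophils. It measured 1086 and 1185 in monocytes, 1105 and 1059 in lung, 981 and 934 in large and 804 and 854 in small intestine, 895 and 641 in peritoneal macrophages, 614 and 454 in Kupffer cells, 570.1 and 771 in spleen and 349.5 and 330.0 in microglia. No other population came near neutrophils, and microglia lay below all others. Tkt rose in neutrophils (log2 fold change 3.13 ± 0.20, adjusted p = 1.31e-09; against monocytes 2.48, adjusted p = 9.55e-07) and fell in microglia (log2 fold change -1.31 ± 0.20, adjusted p = 8.44e-05). Taldo1, transaldolase, followed the same order at its ends, from 251 and 201 in microglia to 3992 and 4699 in neutrophils, with 1753 and 1217 in lung and 1345 and 1482 in monocytes. Taldo1 rose in neutrophils (log2 fold change 1.96 ± 0.24, adjusted p = 2.45e-06; with quantile normalization 0.78, adjusted p = 0.00478) and the intestine (log2 fold change 1.24 ± 0.20, adjusted p = 0.000165) and fell in microglia (log2 fold change -1.42 ± 0.24, adjusted p = 0.000189).

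Rpia, which forms ribose 5-phosphate, was high in lung, at 72.1 and 75.3 normalised reads, against 39.5 and 31.3 in Kupffer cells and 21.9 and 24.8 in spleen (log2 fold change 1.33 ± 0.30, adjusted p = 0.00358). Its level in neutrophils, 85.4 and 52.8, overlapped that of lung, and it was the non-oxidative member that was not called in neutrophils (0.75, adjusted p = 0.0404). The fall in spleen (log2 fold change -1.09 ± 0.30, adjusted p = 0.0242) was lost without either spleen library or lung library 2, with values of -1.18 to -1.01. Rpe measured 33.8 and 46.2 in neutrophils and 2.19 to 22.7 elsewhere; its rise against macrophages (log2 fold change 2.23 ± 0.59, adjusted p = 0.00567) was lost without neutrophil library 3 (2.01, adjusted p = 0.0781) and with equal totals (1.40, adjusted p = 0.0655).

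**Figure D4:**
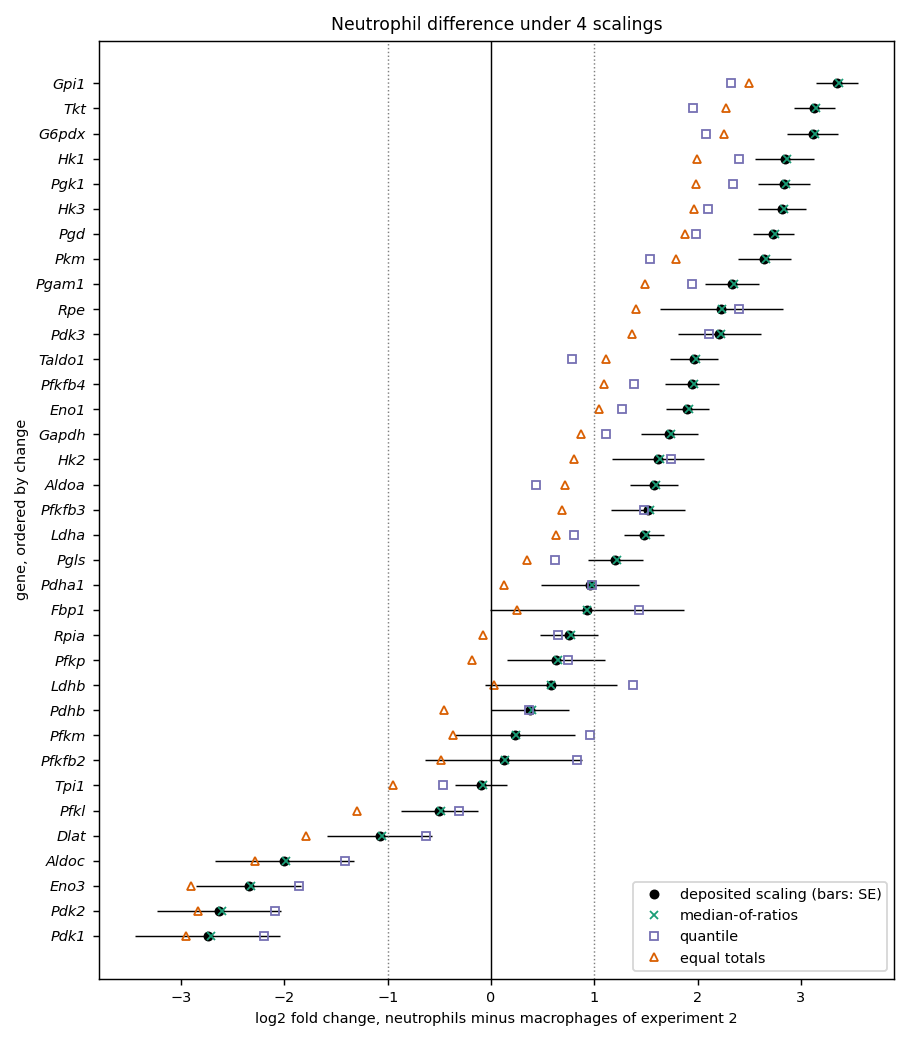
Log2 fold change of each tested member in neutrophils against the macrophages of experiment 2, with the deposited scaling (filled circles; bars are standard errors) and with 3 other scalings; dotted lines mark the fold threshold of 1. Equal totals move every member to the left, and Gpi1, Tkt, G6pdx, Hk1, Pgk1, Hk3, Pgd and Pkm are among those that stay above 1 under all 4 scalings.

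Glucose must enter by a carrier, and 12 of 13 listed carriers of sugars and lactate were tested. Neutrophils had 3 called higher and 2 lower against macrophages (background 15.9% and 22.9%, 38.8% together), microglia 6 higher and 1 lower (background 10.7% and 15.1%, 25.8% together), and peritoneal macrophages 1 higher and 5 lower (background 6.97% and 14.4%, 21.3% together). Slc2a3, the high-affinity glucose carrier GLUT3, measured 575 and 703 normalised reads in neutrophils and 0 to 11.7 in all other libraries (log2 fold change 7.59 ± 0.62, adjusted p = 2.52e-08 against macrophages; 7.35, adjusted p = 1.46e-06 against monocytes). It was listed at 0 in both peritoneal libraries, at least 1.87-fold lower than in the other macrophages of experiment 1. In the intestine its rise (log2 fold change 1.65 ± 0.54, adjusted p = 0.0295) was lost without any 1 of 7 of the 8 libraries of experiment 1, all but microglia library 2 (values of 1.46 to 1.74). Slc2a5, the fructose carrier GLUT5 and a known microglial marker, measured 373 and 655 in microglia and 0 to 12.6 elsewhere (log2 fold change 7.56 ± 0.73, adjusted p = 3.41e-07).

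Slc2a1, the common glucose carrier GLUT1, measured 61.1 and 94.6 normalised reads in microglia, 50.7 and 36.1 in large and 29.2 and 19.9 in small intestine and 8.82 and 9.03 in peritoneal macrophages, and 6.95 to 44.7 in experiment 2. It fell in peritoneal macrophages (log2 fold change -2.13 ± 0.50, adjusted p = 0.00431) and rose in microglia (log2 fold change 1.79 ± 0.50, adjusted p = 0.0118), the latter lost without microglia library 2 (1.48, adjusted p = 0.155). In neutrophils against macrophages the change was 0.24, adjusted p = 0.733. Slc16a3, the lactate exporter MCT4, measured 519 and 635 in neutrophils, 115 and 126 in monocytes, 98.3 and 60.5 in peritoneal macrophages and 135 and 121 in microglia, and 7.07 to 72.7 in the others. Slc16a3 rose in neutrophils (log2 fold change 4.70 ± 0.39, adjusted p = 2.69e-08), monocytes (log2 fold change 2.46 ± 0.39, adjusted p = 0.000162) and microglia (log2 fold change 1.87 ± 0.39, adjusted p = 0.00145).

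**Figure D5:**
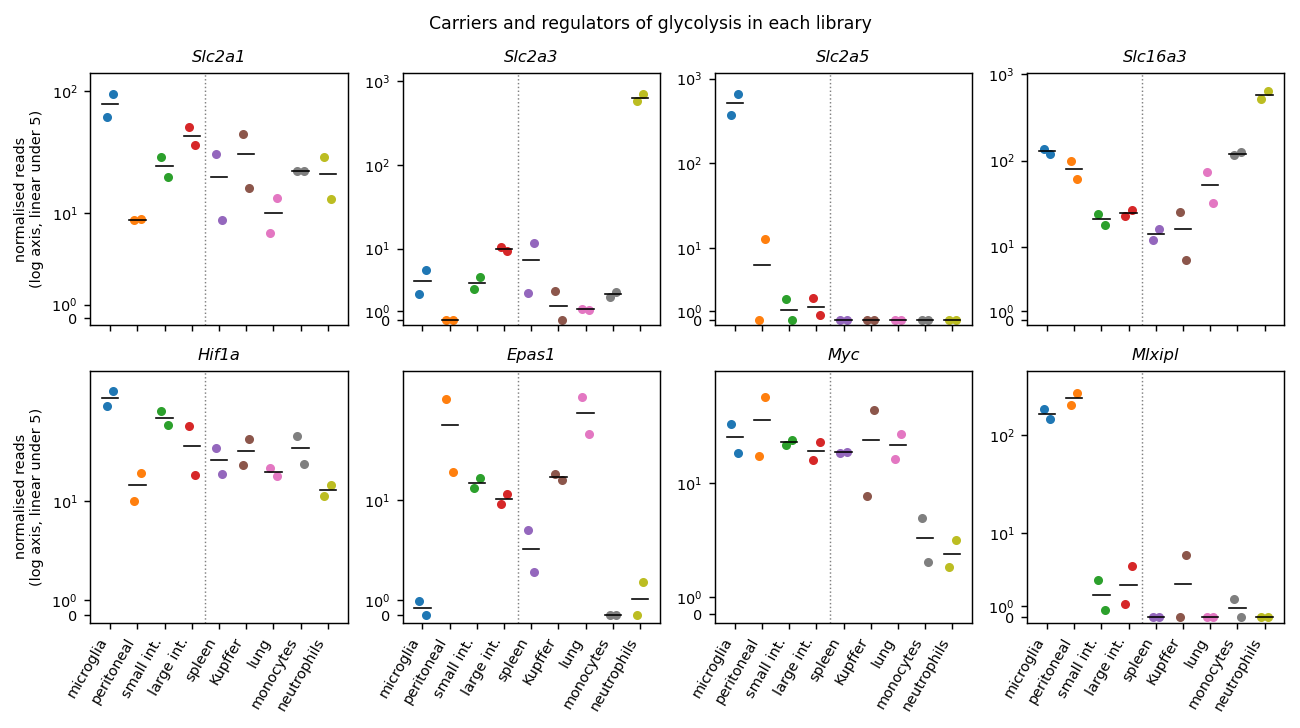
Normalised reads (log axis, linear under 5) of 4 carriers and 4 regulators in each library (points), with the population mean as a bar; the dotted line separates experiment 1 (left) from experiment 2 (right). Slc2a3 and Slc16a3 peak in neutrophils, Slc2a5 in microglia, and Mlxipl in microglia and peritoneal macrophages, while Hif1a and Myc are low in neutrophils.

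Regulators of these enzymes were followed at the level of their messenger RNA. The list held transcription factors and also proteins that act on such factors, such as Vhl, Keap1 and Mtor. Its counts are therefore not counts of drivers. Of the 16 listed regulators, all tested, neutrophils had 2 higher and 3 lower than macrophages (background 15.9% and 22.9%, 38.8% together), microglia 4 higher and 2 lower (background 10.7% and 15.1%, 25.8% together), and peritoneal macrophages 4 higher and 3 lower (background 6.97% and 14.4%, 21.3% together). Hif1a, the oxygen-regulated subunit of HIF, which is controlled mainly as a protein, measured 11 and 13.2 normalised reads in neutrophils, 30.7 and 19.2 in monocytes and 15.5 to 29.3 in the macrophages of experiment 2 (-0.67, adjusted p = 0.203 against macrophages). In experiment 1 it measured 51.7 and 66.7 in microglia and 10.1 and 16.2 in peritoneal macrophages, with 15.7 to 47.2 in the intestine. Its fall in peritoneal macrophages (log2 fold change -1.53 ± 0.41, adjusted p = 0.0111) was lost without peritoneal library 1 (-1.21, adjusted p = 0.152), and its rise in microglia (log2 fold change 1.28 ± 0.41, adjusted p = 0.0255) without either microglia library, small intestine library 4 or large intestine library 3 (values of 1.08 to 1.46).

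Myc, which drives glycolytic genes in growing cells, measured 2.76 and 4.40 normalised reads in neutrophils and 5.97 and 3.07 in monocytes, below all macrophage libraries (8.32 to 37). Its fall in neutrophils (log2 fold change -1.94 ± 0.53, adjusted p = 0.00714) was lost without neutrophil library 1 (-1.68, adjusted p = 0.0741) and with quantile normalization (-1.35, adjusted p = 0.0547). The fall in monocytes (log2 fold change -1.70 ± 0.53, adjusted p = 0.0286) was lost without either monocyte library, Kupffer library 2 or lung library 2 (values of -2.08 to -1.32). Mlxipl, the carbohydrate response factor ChREBP, measured 205 and 268 in peritoneal macrophages and 184 and 148 in microglia, and 0 to 6.06 elsewhere. It rose in peritoneal macrophages (log2 fold change 4.31 ± 0.70, adjusted p = 0.000176) and microglia (log2 fold change 3.63 ± 0.70, adjusted p = 0.000793) and fell in the intestine against both (log2 fold change -5.95 ± 0.61, adjusted p = 8.38e-07). Of 16 other HIF target genes, 14 were tested, with Pfkfb3 and Pfkfb4 counted on this list too and Egln3 also among the regulators: 6 rose and 3 fell in neutrophils against macrophages (background 15.9% and 22.9%, 38.8% together), and 2 rose and 3 fell in microglia (background 10.7% and 15.1%, 25.8% together). With equal totals 4 of the 6 rises in neutrophils were kept. Pfkfb3 and Pfkfb4 were among those 6 rises and were the 2 rises in microglia, where each call was lost without microglia library 2. The 3 falls in microglia were those of Egln3, Ndrg1 and P4ha2, with 0 reads there. They were at least 3.80-fold, 3.52-fold and 4.25-fold lower (floor of 3 reads per library).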

How the data were processed

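Messenger RNA of sorted cells was captured by oligo(dT), pooled after indexed reverse transcription and amplified by in vitro transcription, per the labels' protocols; input was equalised there by Actb. The signal values, called normalised reads, were deposited by the authors as counts divided by 1 factor per library; 86.6% to 88.9% were whole multiples of 1 read (tolerance 0.01), so no count test was run. TopHat and mm9 come from the submitters' processing notes; no source used here gives the counter, the annotation or the normalization tool. The table held 20814 transcript rows (235 without symbol), and the row with the highest mean was kept per gene. Genes at 5.53 or more in at least 2 libraries were tested with limma 3.58.1 (R 4.3.3; two-sided, variance trend, Benjamini-Hochberg adjustment, 9 residual degrees of freedom) on log2(value + 1.11), a scale that understates changes of low genes. On simulated data the code called, in the right direction, 50 of 100 genes changed by 2 on the log2 scale in neutrophils. Of 100 genes changed by 3 it called 76. Changes of that size can thus go uncalled. Tables and plots used Python 3.11.15, numpy 2.4.6, pandas 2.3.3 and matplotlib 3.10.9. Members and lists were chosen with earlier results of these data known. Any member could be named; other pathway genes were named if among the 4 largest called changes of their list, besides Hif1a, Myc, Slc2a1 and Slc2a3. Alternatives covered pseudocount, filter, scaling, variance trend, transcript choice, the libraries used and the replicate block. Promoters are RefSeq's. Totals of normalised reads were 938759 to 1883301 per library.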

Additional observations from a re-analysis of the deposited data

How the results depend on the processing

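Of 97 called differences of members between populations, none reversed in 30 alternative fits, 34 were lost without some library and 41 were kept in all fits but the replicate block. With the replicate number as a block (replicate block, 2 residual degrees of freedom) the members called were 4 for microglia, 2 for peritoneal macrophages, 0 for intestine, 0 for spleen, 0 for Kupffer cells, 2 for lung, 2 for monocytes, 10 for neutrophils and 6 for neutrophils against monocytes, and by F test 10 over 9 populations, 6 in experiment 1 and 7 in experiment 2. Whether the numbers pair the libraries could be checked only for 2 pairs of populations, those with the same numbers in all titles. Differences between their libraries 1 and 2 correlated over genes with r = 0.00188 (microglia and peritoneal) and 0.00509 (spleen and monocytes). A low r does not show whether libraries shared mice or a batch. With equal totals 11 members were called for peritoneal macrophages, 1 for small against large intestine and 10 for neutrophils against monocytes; with quantile normalization 12, 1 and 11; with a pseudocount 4 times higher, 1 for small against large intestine. Against the macrophages of both experiments, where population and experiment cannot be told apart, 5 were called for intestine, 8 for spleen and 12 for lung. Leaving out 1 library at a time gave 0 to 1 for small against large intestine, 1 to 6 for spleen and 3 to 9 for monocytes. The member counts of these alternative fits have no share of all genes beside them. Values that reversed were Adpgk in intestine (-0.34) and lung (0.0244) and Gclm in lung (0.26) against both experiments, and Pck2 in neutrophils under the replicate block (0.0834); the cause was not tested. Some calls of Aldoc, Ldhb, Pdk1, Pdk2 and Pfkp rest on 0 to 3 reads in one population.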

Other observations

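Genes of glycogen metabolism, which stores glucose and releases it as glucose 1-phosphate, also differed between populations. Of 9 tested glycogen genes, 7 rose and 1 fell in neutrophils against the macrophages of experiment 2 (background 15.9% and 22.9%, 38.8% together), and 3 rose and 1 fell in peritoneal macrophages (background 6.97% and 14.4%, 21.3% together). With equal totals the rises of Pgm1 (1.21, adjusted p = 0.17) and Ugp2 (0.64, adjusted p = 0.263) in neutrophils were lost; with quantile normalization all 8 calls were kept. Gys1, glycogen synthase, measured 339 and 352 normalised reads in neutrophils and 18.7 to 47.8 in the macrophages of experiment 2 (log2 fold change 3.42 ± 0.39, adjusted p = 1.12e-06). Gbe1, the branching enzyme, measured 88.2 and 81.3 in neutrophils and 134 and 125 in peritoneal macrophages, and 0 to 22.6 in the other macrophages (4.48, adjusted p = 0.000105, and 3.67, adjusted p = 0.00145). Pygl, the liver-type glycogen phosphorylase, measured 1357 and 1735 in neutrophils and 969.6 and 931 in peritoneal macrophages, against 19.7 to 41.9 in the other macrophages of experiment 1 and 87.6 to 309 in those of experiment 2 (3.21, adjusted p = 3.56e-09, and 4.97, adjusted p = 7.35e-11). Pygb, the brain type, fell in both (-3.46, adjusted p = 2.1e-07, and -1.84, adjusted p = 0.000549). In lung, Gyg, the primer of glycogen, rose (log2 fold change 2.79 ± 0.29, adjusted p = 1.3e-06).

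Among 17 other genes of glycolysis and gluconeogenesis that were tested, 6 rose and 3 fell in neutrophils against macrophages (background 15.9% and 22.9%, 38.8% together), of which 3 and 3 were kept with equal totals and 5 and 2 with quantile normalization. Adpgk, a glucokinase that uses ADP, measured 2094 and 2523 normalised reads in neutrophils and 5.56 to 109.6 in all other libraries (log2 fold change 5.42 ± 0.41, adjusted p = 1.01e-08 against macrophages; 6.42, adjusted p = 8.43e-08 against monocytes). Of 12 genes linked to the pentose phosphate pathway, 1 rose and 4 fell in neutrophils, against the same background. Gsr, which spends NADPH to reduce glutathione, rose; it measured 124 and 171 normalised reads in neutrophils and 8.97 to 38.7 in macrophages (log2 fold change 2.90 ± 0.51, adjusted p = 0.000177). Prps1 and Prps2, which turn ribose 5-phosphate into the precursor of nucleotides, were listed at 0 in both neutrophil libraries and were at least 2.34-fold and 2.22-fold lower than in macrophages (floor of 3 reads per library). Of 5 other genes around pyruvate dehydrogenase, 2 rose and 1 fell in neutrophils, against the same background. Mpc2, a subunit of the mitochondrial pyruvate carrier, rose; it measured 754 and 656 in neutrophils and 66.5 to 222 in macrophages (log2 fold change 2.48 ± 0.23, adjusted p = 1.15e-07). Mpc1 rose too (1.31, adjusted p = 0.00122), a call lost with equal totals (0.48, adjusted p = 0.19), and Pdp2, a phosphatase that switches the complex on, fell (-2.73, adjusted p = 0.00105), a call lost without neutrophil library 3 (-1.83, adjusted p = 0.0605).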
